A study of Mus musculus with 17 samples.

Results

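The circadian clock genes described here are *Per1*, *Per2*, *Per3*, *Cry1*, *Cry2*, *Clock*, *Nr1d1*, *Nr1d2*, *Dbp* and *Tef*, 10 of the 54456 genes that the deposited files name by symbol. They were matched to the files by symbol, and were chosen with earlier results of these data known. All 10 passed the filter on low counts and were among the 22733 genes tested. RNA was sequenced from tdTomato+ β cells that had been sorted from islets of male mice after 3 days of islet culture at 2.8 or 16.7 mM glucose. Before that, the islets had recovered for 3 days at an intermediate glucose concentration. A difference between 2.8 and 16.7 mM therefore does not say which side moved. All mice carried a Cre-dependent tdTomato reporter and RIP-Cre, a Cre recombinase driven by the rat insulin promoter, so that sorted cells are those in which the Cre had acted. Control mice, with genotype WT in the labels, had the reporter and the Cre, and mice of genotype PCBP2KO (written Pcbp2KO here) were RIPCre+;Pcbp2Fl/Fl;Tdtomato and lacked *Pcbp2*, which encodes an RNA-binding protein, in these cells. There were 3 control samples at 2.8 mM, 4 control samples at 16.7 mM and 5 Pcbp2KO samples at each concentration, 17 in all. Neither the labels nor the methods give the time of day at which cells were collected, so a change in the level of a rhythmic gene cannot be told apart from a change in its phase. The labels do not say whether samples of a group came from separate mice or cultures, and p values then measure the spread between these samples, which may be technical.

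In the mammalian clock, the proteins CLOCK and BMAL1 bind E-box sequences together and activate the *Per* and *Cry* genes, whose products enter the nucleus and inhibit CLOCK and BMAL1. The same activators drive *Nr1d1* and *Nr1d2*, which encode the nuclear receptors REV-ERBα and REV-ERBβ that repress *Bmal1*, and *Dbp* and *Tef*, which encode PAR bZIP factors that bind D-box sequences and carry the rhythm to output genes. β cells hold a clock of their own, and insulin secretion varies with it.

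The start regions of the genes are shown first, since clock factors are known to act through short sequences there. For each gene, the window held 250 bases before and 50 bases from the start of its most abundant protein-coding transcript (genome build GRCm39, annotation GENCODE vM39). Both strands were searched for the E-box CACGTG, the related E′-box CACGTT, the D-box TTANGTAA, the cAMP response element TGACGTCA and TAGGTCA, the core of the element bound by REV-ERB and ROR receptors. A window was available for 15569 of the 22733 tested genes. The E-box was found in 3 of the 10 clock genes (*Per1*, *Cry1* and *Tef*) and in 8.92% of all windows. The E′-box was found in 4 clock genes (*Per2*, *Cry1*, *Cry2* and *Nr1d1*) and in 5.59% of all windows. The D-box was found in *Per2* and *Per3*, with 2 copies in *Per3*, against 1.98% of all windows. TAGGTCA was found in *Dbp* alone among the clock genes, against 2.24% of all windows, and TGACGTCA in none of them, against 2.72%. The windows of *Clock* and *Nr1d2* held none of the 5 motifs, and in no clock gene did motifs overlap. A match describes the letters of the window and not a bound site. Of the windows, 5 are printed 5′ to 3′ on the strand of the gene, with the motifs in capitals: *Cry1* (chr10:85020900-85021199, minus strand), *Nr1d1* (chr11:98666110-98666409, minus strand), *Dbp* (chr7:45354262-45354561, plus strand) and *Tef* (chr15:81695365-81695664, plus strand), which were called lower at high glucose in both genotypes or, for *Dbp*, in Pcbp2KO cells alone, and *Per3* (chr4:151129091-151129390, minus strand), which carries the pair of D-boxes.
Cry1: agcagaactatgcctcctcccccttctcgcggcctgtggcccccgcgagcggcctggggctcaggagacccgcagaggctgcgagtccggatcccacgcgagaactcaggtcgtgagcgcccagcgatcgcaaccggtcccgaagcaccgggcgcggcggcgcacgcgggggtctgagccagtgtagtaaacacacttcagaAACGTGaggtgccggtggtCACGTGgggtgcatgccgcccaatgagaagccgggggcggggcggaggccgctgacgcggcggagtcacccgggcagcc
Nr1d1: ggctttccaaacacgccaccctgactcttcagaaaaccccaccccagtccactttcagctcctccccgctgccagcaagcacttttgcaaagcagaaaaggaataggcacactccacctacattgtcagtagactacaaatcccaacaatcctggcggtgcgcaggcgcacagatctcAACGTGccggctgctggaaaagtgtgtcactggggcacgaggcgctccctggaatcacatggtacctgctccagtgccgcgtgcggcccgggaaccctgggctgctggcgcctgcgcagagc
Dbp: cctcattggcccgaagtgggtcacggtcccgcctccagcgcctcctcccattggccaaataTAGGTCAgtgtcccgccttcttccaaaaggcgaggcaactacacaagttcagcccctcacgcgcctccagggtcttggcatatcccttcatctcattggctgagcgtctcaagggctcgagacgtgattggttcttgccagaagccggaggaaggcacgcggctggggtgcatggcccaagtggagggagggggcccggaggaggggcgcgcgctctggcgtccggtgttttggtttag
Tef: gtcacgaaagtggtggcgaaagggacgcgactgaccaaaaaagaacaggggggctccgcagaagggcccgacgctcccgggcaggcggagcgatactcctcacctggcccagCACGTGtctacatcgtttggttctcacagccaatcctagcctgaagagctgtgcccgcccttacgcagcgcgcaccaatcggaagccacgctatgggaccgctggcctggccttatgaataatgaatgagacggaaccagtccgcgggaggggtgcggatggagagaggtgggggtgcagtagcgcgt
Per3: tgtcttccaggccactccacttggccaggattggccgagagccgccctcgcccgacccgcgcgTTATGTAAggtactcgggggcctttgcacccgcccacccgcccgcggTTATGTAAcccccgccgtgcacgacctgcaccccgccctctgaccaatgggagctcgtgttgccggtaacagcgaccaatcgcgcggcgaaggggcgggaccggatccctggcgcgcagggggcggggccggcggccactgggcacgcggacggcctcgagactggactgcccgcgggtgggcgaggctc

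Total estimated counts ranged from 47385513 to 82419400 per sample. *Pcbp2* was between 35.0 and 73.4 CPM (estimated counts scaled to library sizes of 1e+06) in control samples and between 5.81 and 19.2 CPM in Pcbp2KO samples, with no overlap. The 8 β cell markers summed to TPM values (the same kind of scale after division by transcript length) between 242100 and 704800 in every sample, and acinar, ductal, endothelial and stellate markers each summed to less than 1 TPM. A set of 3 samples, control 16.7 mM replicate 4 and Pcbp2KO 16.7 mM replicates 4 and 5, were apart from the other samples of their groups in earlier results of these data, and *Nr4a1*, a gene induced by activity, was at 5.09, 8.75 and 9.32 CPM in them and between 55.2 and 84.4 CPM in the other 6 samples at 16.7 mM. Counts of the 10 clock genes called, and of the other clock genes, are also given without these 3 samples. The 3 were set apart within these same data, so that counts and p values without them are a description and not a separate test.

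All 10 genes were detected in every sample. Per length of transcript, the order of the median TPM over the 17 samples was *Cry2* at 28.8 (14.9 to 62.0), *Nr1d2* at 21.0 (7.01 to 58.2), *Dbp* at 15.4 (4.60 to 54.7), *Tef* at 11.9 (4.42 to 25.7), *Cry1* at 11.5 (4.40 to 35.5), *Clock* at 7.65 (4.14 to 14.4), *Nr1d1* at 7.13 (2.43 to 24.1), *Per2* at 3.45 (1.76 to 8.95), *Per3* at 2.49 (0.564 to 7.83) and *Per1* at 1.19 (0.743 to 2.42). The ranges of neighbours in this order overlapped in each case. The smallest estimated count of a clock gene in a sample was 259, for *Per1*. Within groups, *Clock* varied least, with an SD of 0.15 on the log2 CPM scale, and *Dbp* varied most, with an SD of 0.59. The median within-group SD of all tested genes was 0.48.

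**Figure D1:**
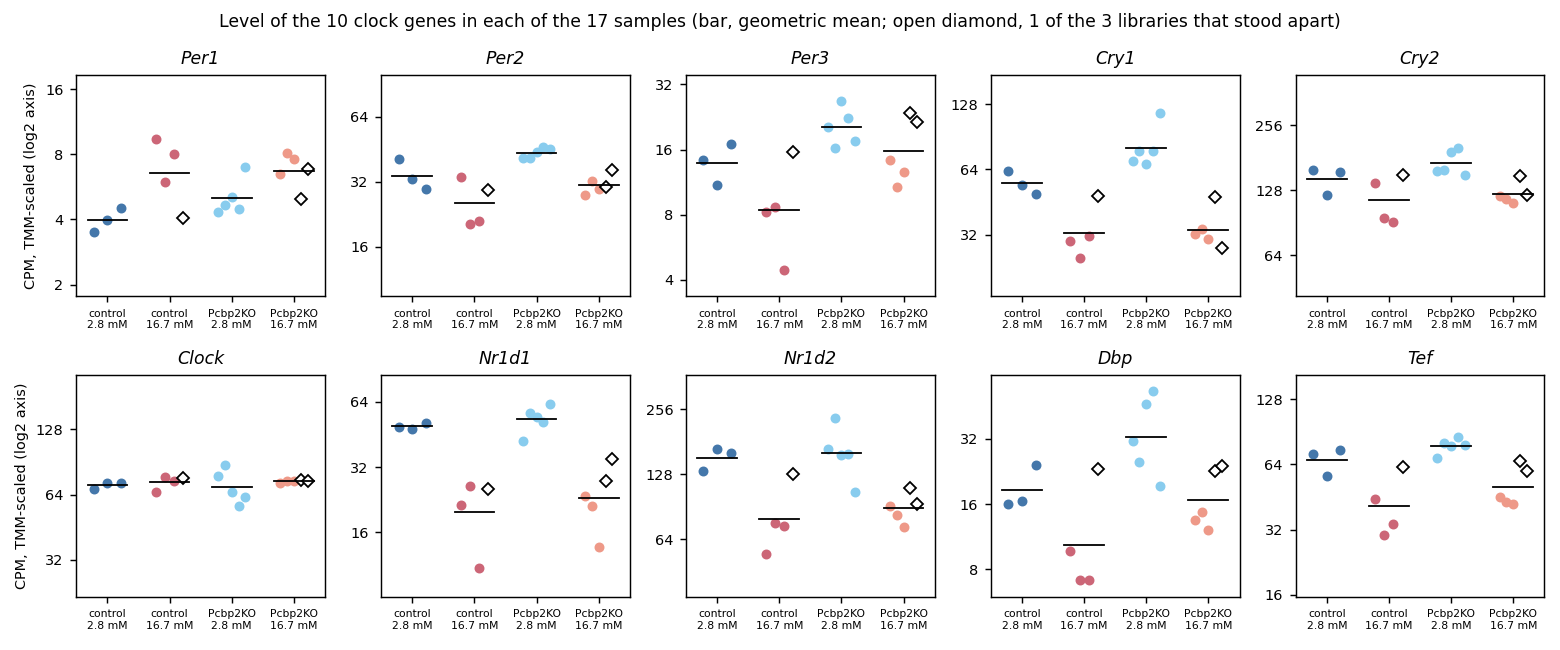
Level of each clock gene in CPM (TMM-scaled, log2 axis) in the 17 samples by group. Circles are samples, bars are geometric means of groups, and open diamonds are the 3 samples that stood apart. *Cry1* and *Nr1d1* were lower in every sample at 16.7 mM than in any sample of the same genotype at 2.8 mM, whereas *Clock* stayed between 56.6 and 87.2 CPM in all 17 samples.

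The first question was how the clock genes of control β cells differed between 3 days at high and at low glucose. Of the 10 genes, 4 were called, all lower at 16.7 mM: *Cry1*, *Nr1d1*, *Nr1d2* and *Tef*. A gene was called where its Benjamini-Hochberg adjusted p over all tested genes was under 0.05 in edgeR's quasi-likelihood test and its fold change was over 1.5. Over all tested genes, 13.9% were called in this comparison in either direction and 6.7% were called lower (1627 higher and 1523 lower). With counts scaled to the library total, the split of all genes was 781 higher and 4053 lower. The median log2 fold change of the 10 clock genes was -0.63, against 0.04 for all genes tested.

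In Pcbp2KO cells, the same comparison called 5 of the 10, again all lower at 16.7 mM: *Cry1*, *Nr1d1*, *Nr1d2*, *Tef* and *Dbp*. The background here was 23.9% of tested genes called in either direction and 10.5% called lower (3060 higher and 2376 lower, or 1484 and 6364 with counts scaled to the library total). The median log2 fold change of the clock genes was -0.55, against 0.01 for all genes. *Per2* and *Cry2* also had adjusted p values under 0.05 (edgeR) but with fold changes under 1.5. The glucose comparisons in the 2 genotypes share no sample, and the sign of the fitted change was the same in both for all 10 clock genes and for 77.3% of all tested genes.

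The replicate numbers of the control samples were taken to pair them, since same-numbered samples deviated together (r = 0.198, 0.124 and 0.259 over genes). This pairing was chosen from the same data. The fit with the replicate number as a block held all 17 samples, so that same-numbered Pcbp2KO samples shared the block. Those did not deviate with control samples in each pair (r = -0.00138 for replicate 1 of control 2.8 mM and of Pcbp2KO 16.7 mM). In that fit, 7 clock genes were called in control cells in place of 4: *Per1* higher, and *Per3* and *Dbp* lower beside the other 4. With the block, 21% of all tested genes were called. The same 7 were called without the 3 samples that stood apart, where 22% of all tested genes were called. In Pcbp2KO cells, 8 were called without those samples, all lower, with *Per2*, *Per3* and *Cry2* added, against 28.6% of all tested genes. Without control 16.7 mM replicate 4 alone, 7 were called in control cells, against 4475 of 22630 tested genes. Without control 2.8 mM replicate 1, *Nr1d1* and *Nr1d2* remained, against 1989 of 23822 tested genes. Without any 1 of control 2.8 mM replicates 2 and 3 and control 16.7 mM replicates 1, 2 and 3, only *Nr1d1* remained. In those fits 1384 to 2818 of all tested genes were called, against 3150 in the main fit, so that calls changed in number over all genes.

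Levels of markers of other cells differed with glucose on the TPM scale, which was itself shifted. The β cell markers summed to 348700 to 396800 TPM at 2.8 mM and to 623400 to 676800 TPM at 16.7 mM in control cells. On log2(TPM + 0.1), the median log2 fold change of all tested genes was -0.55 in control and -0.71 in Pcbp2KO cells. In CPM, control means at 2.8 and 16.7 mM were 191.6 and 171.5 for *Sst* and 818.8 and 366.6 for *Ppy*. Macrophage markers (*Adgre1*, *Cd68*, *Lyz2*) summed to 14.97 to 52.6 TPM in control cells at 2.8 mM and 0.846 to 9.35 TPM at 16.7 mM, and in Pcbp2KO cells to 23.9 to 119.8 TPM and 0.626 to 6.79 TPM. *Ppy*, the hormone of PP cells, was at 2711 to 3200 TPM and 457.6 to 1651 TPM in control cells, and at 3656 to 17070 TPM and 495.7 to 2229 TPM in Pcbp2KO cells. The 4 alpha cell markers summed to 769 to 2799 TPM and 335 to 1290 TPM in control cells, and to 1842 to 13280 TPM and 474 to 1001 TPM in Pcbp2KO cells. The control ranges of this sum overlap, and its members differ in direction: *Gcg* carries most of the sum, while *Ttr* was called higher at 16.7 mM in both genotypes. The 2 delta cell markers summed to 137 to 566 TPM and 102 to 322 TPM in control cells, and to 239 to 2099 TPM and 77.8 to 355 TPM in Pcbp2KO cells. The 3 proliferation markers summed to 1.46 to 1.94 TPM and 1.36 to 7.48 TPM in control cells, and to 1.64 to 6.14 TPM and 0.585 to 35.7 TPM in Pcbp2KO cells. They were called higher in Pcbp2KO cells (3 of 3) and not in control cells (0 of 3), where 23.9% and 13.9% of all tested genes were called. Control means of *Mki67* at 2.8 and 16.7 mM were 0.58 and 5.51 CPM. In Pcbp2KO cells at 16.7 mM *Mki67* ran from 0.218 to 54.2 CPM. A call in 1 genotype alone is not a difference between genotypes. The part of these cells in the changes of the clock genes was not tested, and in bulk RNA fewer cells of a type cannot be told apart from less RNA per cell.

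**Figure D2:**
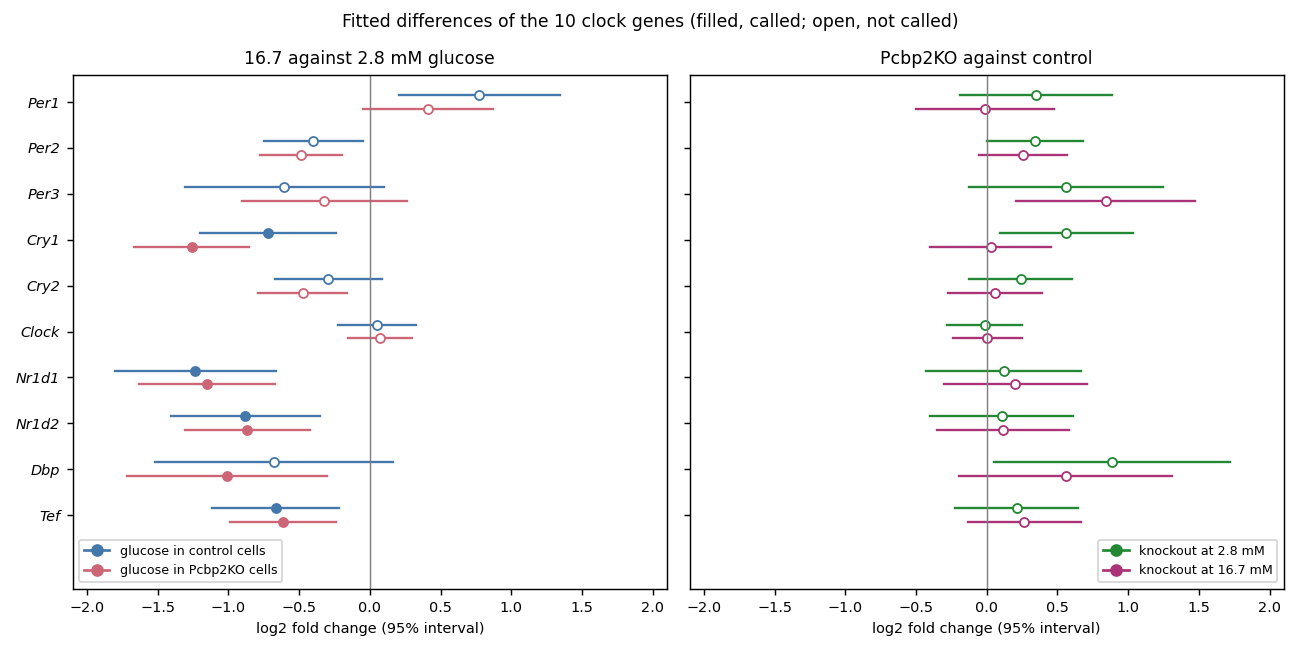
Fitted log2 fold changes of the 10 clock genes with 95% intervals, for glucose (left; 16.7 against 2.8 mM in control and in Pcbp2KO cells) and for the knockout (right; Pcbp2KO against control at 2.8 and at 16.7 mM). Filled points were called and open points were not; called genes lie on the left of 0 in the glucose comparisons, and no point is filled in the knockout comparisons.

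Among the inhibitors of the activators, *Per1* was the only clock gene other than *Clock* with a positive estimate. *Per1* encodes a period protein whose transcription also responds to cAMP signalling. In control cells it was at 3.51, 4.00 and 4.54 CPM at 2.8 mM and at 9.42, 5.97, 8.05 and 4.05 CPM at 16.7 mM. At high glucose, 3 of the 4 samples were above all samples at low glucose, and replicate 4 was not. The log2 fold change was 0.77 ± 0.27 (SE), with an adjusted p of 0.0587 (edgeR), so that *Per1* was not called. In Pcbp2KO cells *Per1* was at 4.33, 4.68, 5.07, 4.49 and 7.01 CPM at 2.8 mM and at 6.48, 8.09, 7.65, 4.97 and 6.84 CPM at 16.7 mM. The groups overlapped, and the log2 fold change was 0.41 ± 0.22 with an adjusted p of 0.176. The sign of *Per1* in Pcbp2KO cells was negative when counts were scaled to the library total, at -0.078. The median of all tested genes was itself shifted to -0.47 there, so that *Per1* stayed above the median gene.

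*Per2*, the period gene most needed for a rhythm, was between 29.5 and 40.8 CPM in control cells at 2.8 mM and between 20.4 and 33.8 CPM at 16.7 mM. These groups overlapped, and the change of -0.40 ± 0.17 on the log2 scale was not called (adjusted p = 0.117, edgeR). In Pcbp2KO cells *Per2* was at 41.3, 41.4, 43.8, 46.5 and 45.5 CPM at 2.8 mM and at 27.7, 32.2, 29.6, 30.2 and 36.4 CPM at 16.7 mM. Every sample at high glucose was below every sample at low glucose, and the log2 fold change of -0.49 ± 0.14 (adjusted p = 0.0127, edgeR) was a fold below 1.5.

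*Per3*, the period gene with the pair of D-boxes printed above, was at 14.3, 10.9 and 16.9 CPM in control cells at 2.8 mM and at 8.24, 8.73, 4.43 and 15.6 CPM at 16.7 mM. Replicate 4 at 16.7 mM lay among the samples at 2.8 mM, and the other 3 were below all of them. In Pcbp2KO cells it was at 20.3, 16.2, 26.9, 22.5 and 17.6 CPM at 2.8 mM and at 14.3, 10.7, 12.6, 23.7 and 21.4 CPM at 16.7 mM. Here replicates 4 and 5 at 16.7 mM lay among the samples at low glucose and the other 3 did not. *Per3* was called in neither genotype, where its log2 fold change was -0.60 ± 0.33 in control cells (adjusted p = 0.246, edgeR) and -0.32 ± 0.28 in Pcbp2KO cells (adjusted p = 0.427).

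*Cry1*, a cryptochrome that represses CLOCK and BMAL1, was at 63.1, 54.1 and 49.4 CPM in control cells at 2.8 mM and at 30.0, 25.0, 31.4 and 48.4 CPM at 16.7 mM. All samples at high glucose were below all samples at low glucose, although replicate 4 missed the range of the low-glucose samples narrowly. The log2 fold change was -0.72 ± 0.23 (adjusted p = 0.0388, edgeR). In Pcbp2KO cells *Cry1* was at 69.9, 78.2, 67.6, 78.0 and 116.8 CPM at 2.8 mM and at 32.0, 33.9, 30.5, 47.6 and 27.7 CPM at 16.7 mM. The groups did not overlap, and *Cry1* had the lowest adjusted p of the 10 genes there, 0.000118 (edgeR), with a log2 fold change of -1.26 ± 0.19.

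*Cry2*, the second cryptochrome, was between 121 and 159 CPM in control cells at 2.8 mM and between 90.9 and 151 CPM at 16.7 mM, and its change of -0.29 ± 0.18 on the log2 scale was not called (adjusted p = 0.302, edgeR). In Pcbp2KO cells it was between 151 and 200.1 CPM at 2.8 mM and between 111 and 149.8 CPM at 16.7 mM. The Pcbp2KO groups did not overlap, and the log2 fold change was -0.47 ± 0.15 (adjusted p = 0.0225, edgeR), a fold below 1.5.

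*Clock*, the only gene among the 10 that encodes a partner of the CLOCK and BMAL1 pair, was between 56.6 and 87.2 CPM in all samples. Its groups overlapped in both genotypes. The log2 fold change was 0.05 (95% interval -0.23 to 0.33) in control cells and 0.07 (-0.16 to 0.30) in Pcbp2KO cells. These signs depended on the scale. With counts scaled to the library total they were -0.33 and -0.40, where the median of all tested genes was itself shifted to -0.35 and -0.47, so that *Clock* stayed near the median gene.

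*Nr1d1* was at 49.0, 48.1 and 51.0 CPM in control cells at 2.8 mM and at 21.5, 26.3, 10.9 and 25.3 CPM at 16.7 mM. No sample at high glucose came near those at low glucose. The log2 fold change was -1.23 ± 0.27 (adjusted p = 0.00594, edgeR), the largest in size of the 10 in control cells. In Pcbp2KO cells *Nr1d1* was at 42.1, 57.0, 54.4, 51.7 and 62.9 CPM at 2.8 mM and at 23.5, 21.2, 13.6, 27.5 and 34.7 CPM at 16.7 mM. These groups did not overlap either, and the log2 fold change was -1.15 ± 0.23 (adjusted p = 0.000959, edgeR). *Nr1d1* (chr11:98658752-98666188, minus strand, GRCm39) shares 1694 of its exonic bases (52.3%) with exons of *Thra*, a thyroid hormone receptor gene on the opposite strand, and the sources used here do not say whether reads were assigned by strand. *Thra* was lower at 16.7 mM by about as much, with log2 fold changes of -1.33 ± 0.35 in control and -1.32 ± 0.30 in Pcbp2KO cells (both called). Its control means at 2.8 and 16.7 mM were 7.13 and 2.83 CPM, where those of *Nr1d1* were 49.35 and 20.99 CPM. Without the strand, reads of the 2 genes cannot be told apart over this stretch, and the part of *Thra* in the counts of *Nr1d1* was not tested.

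*Nr1d2*, whose product REV-ERBβ acts beside REV-ERBα, was at 132, 168 and 160.3 CPM in control cells at 2.8 mM and at 55.0, 76.0, 74.2 and 128 CPM at 16.7 mM. The groups did not overlap, with replicate 4 next to the low-glucose samples, and the log2 fold change was -0.88 ± 0.25 (adjusted p = 0.0232, edgeR). In Pcbp2KO cells it was at 167, 234, 157, 159.6 and 106 CPM at 2.8 mM and at 91.8, 83.1, 73.0, 111 and 92.9 CPM at 16.7 mM. Replicate 5 at 2.8 mM was lower than replicate 4 at 16.7 mM, and the other samples were separate. The log2 fold change was -0.87 ± 0.21 (adjusted p = 0.00431, edgeR), close to that in control cells.

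*Tef* was at 71.5, 56.9 and 74.8 CPM in control cells at 2.8 mM and at 44.1, 30.3, 33.9 and 62.5 CPM at 16.7 mM. Replicate 4 at 16.7 mM was above replicate 2 at 2.8 mM. In Pcbp2KO cells *Tef* was at 68.5, 80.7, 78.1, 86.1 and 79.0 CPM at 2.8 mM and at 45.1, 42.9, 42.2, 66.6 and 59.97 CPM at 16.7 mM, without overlap. The log2 fold changes were -0.66 ± 0.21 and -0.61 ± 0.18 (adjusted p = 0.0417 and 0.0144, edgeR).

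*Dbp* was at 15.9, 16.5 and 24.3 CPM in control cells at 2.8 mM and at 9.67, 7.16, 7.14 and 23.4 CPM at 16.7 mM. At high glucose, 3 of the 4 samples were below every sample at low glucose, and replicate 4 was almost as high as the highest of these. The log2 fold change of -0.68 ± 0.40 was not called (adjusted p = 0.284, edgeR). In Pcbp2KO cells *Dbp* was at 31.4, 25.0, 46.4, 53.1 and 19.3 CPM at 2.8 mM and at 13.5, 14.7, 12.1, 22.7 and 24.1 CPM at 16.7 mM. Replicate 5 at 2.8 mM was below replicates 4 and 5 at 16.7 mM, and the log2 fold change was -1.01 ± 0.34 (adjusted p = 0.0301, edgeR).

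The counts of *Dbp* fell into different kinds of transcript, and the comparison of these was made after the shares had been seen. The files list 3 coding transcripts and 2 transcripts annotated as retained introns, Dbp-202 and Dbp-205, which keep part of the second intron (chr7:45356441-45357683, GRCm39) and run on into the third exon (chr7:45357684-45357895). The boundary that these transcripts carry unspliced, at chr7:45357624-45357723 on the plus strand, reads as follows, with 60 bases of intron in lower case and 40 bases of exon in capitals.
Dbp intron to exon boundary: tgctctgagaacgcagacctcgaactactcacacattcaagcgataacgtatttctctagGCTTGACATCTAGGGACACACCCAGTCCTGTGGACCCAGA

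In control cells, the coding transcripts of *Dbp* were at 8.70, 10.8 and 19.4 CPM at 2.8 mM and at 2.00, 1.91, 2.42 and 14.6 CPM at 16.7 mM. The retained-intron transcripts were at 7.25, 5.66 and 4.95 CPM and at 7.66, 5.25, 4.72 and 8.74 CPM. Coding transcripts were thus lower in 3 of the 4 samples at high glucose than in all samples at low glucose, while retained-intron transcripts covered about the same range at both concentrations. In Pcbp2KO cells, the coding transcripts were at 20.04, 17.7, 34.5, 42.6 and 10.01 CPM at 2.8 mM and at 5.49, 7.18, 3.60, 13.8 and 8.56 CPM at 16.7 mM. The retained-intron transcripts were between 7.39 and 11.9 CPM and between 7.56 and 15.5 CPM. When only coding transcripts were counted for every gene, the log2 fold change of *Dbp* with glucose was -1.30 ± 0.65 in control cells (adjusted p = 0.164, edgeR) and -1.68 ± 0.55 in Pcbp2KO cells (adjusted p = 0.0225). Without the 3 samples that stood apart it was -2.59 (adjusted p = 0.000884, edgeR) and -2.23 (adjusted p = 0.000824). Those samples were set apart within these same data, and in all 3 the level of *Dbp* was above its group mean. The values without them are therefore a description and not separate support for a decrease.

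As a share of all counts of *Dbp*, the retained-intron transcripts took 33.4% ± 12.6 (SD, n = 3) at 2.8 mM and 64.1% ± 18.6 (n = 4) at 16.7 mM in control cells, and 31.9% ± 10.9 (n = 5) and 56.9% ± 12.1 (n = 5) in Pcbp2KO cells. Two-sided exact permutation tests gave p = 0.0857 and p = 0.0159, and adjusted over the 20 tests made on the 5 clock genes with such transcripts, 0.317 and 0.159, so that neither passed. *Tef* showed a smaller shift, from 4.22% ± 1.299 to 7.87% ± 1.85 in control cells and from 4.01% ± 1.21 to 7.93% ± 1.88 in Pcbp2KO cells, with exact p values of 0.0286, the smallest that 3 against 4 samples allow, and 0.0159, and adjusted values of 0.191 and 0.159. Among 4654 genes with at least 100 counts in every sample and a mean share of at least 1%, the median difference in this share was 0.34 percentage points in control cells and 0.06 in Pcbp2KO cells. The difference of *Dbp* was at percentile 99.9 in both, and that of *Tef* at percentile 89.1 in control and 91.2 in Pcbp2KO cells. The last exon of *Dbp* overlaps *Sphk2* on the opposite strand over 539 exonic bases, 15.5% of those of *Dbp*, and *Sphk2* was not called (log2 fold changes -0.45 ± 0.20 and -0.24 ± 0.16). Control means of *Sphk2* at 2.8 and 16.7 mM were 57.28 and 41.92 CPM, where those of *Dbp* were 18.92 and 11.83 CPM. The part of *Sphk2* in the counts of *Dbp* was not tested.

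**Figure D3:**
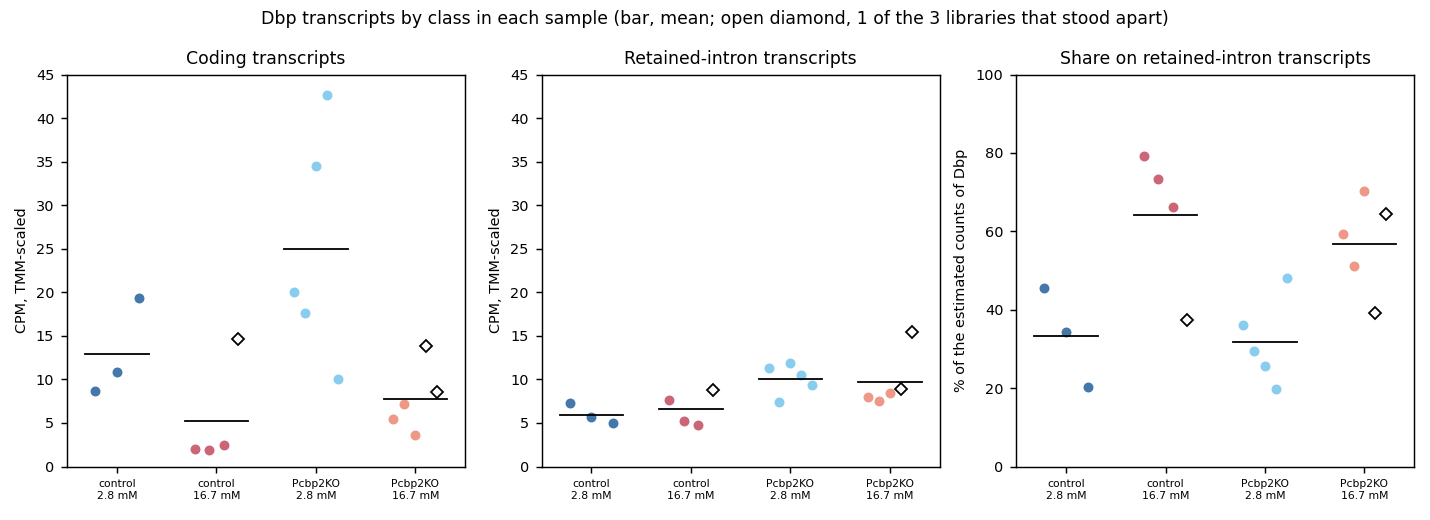
Coding transcripts (left) and retained-intron transcripts (middle) of *Dbp* in CPM, and the share of the counts of *Dbp* on retained-intron transcripts in percent (right), in the 17 samples by group. Circles are samples, bars are means and open diamonds are the 3 samples that stood apart; in control cells at 16.7 mM, 3 samples had 1.91 to 2.42 CPM of coding transcripts and the fourth had 14.6 CPM.

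The second question was whether loss of *Pcbp2* changed the clock genes. None of the 10 was called by edgeR at either glucose concentration, where the background was 2.05% of tested genes at 2.8 mM and 1.71% at 16.7 mM. At an unadjusted p under 0.05 (edgeR) there were 3 at 2.8 mM and 1 at 16.7 mM. The share of all tested genes under that unadjusted limit is not given here, so that these counts have no background and show no excess. DESeq2 called none at either concentration, against 836 and 721 of 22733 tested genes. Without the 3 samples that stood apart, none was called either, against 3.02% and 2.64% of all tested genes. At 2.8 mM the estimates ran from -0.02 to 0.89 on the log2 scale, with a median of 0.29 against 0.03 for all genes. The 3 with an unadjusted p under 0.05 were *Dbp*, at 0.89 (95% interval 0.05 to 1.72), *Cry1*, at 0.56 (0.09 to 1.03), and *Per2*, at 0.34 (0.00 to 0.68). Their adjusted p values were 0.345, 0.270 and 0.386.

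At 16.7 mM the estimates ran from -0.01 to 0.84, with a median of 0.16 against 0.01 for all genes. The highest was that of *Per3*, at 0.84 (95% interval 0.21 to 1.47), with an adjusted p of 0.224 (edgeR). All 5 Pcbp2KO samples were above control replicates 1 to 3, and 2 of them, replicates 4 and 5, were also above control replicate 4. These 2 and control replicate 4 are the 3 samples that stood apart. Without control replicate 4 alone *Per3* was called, and calls over all tested genes rose from 388 to 654. Without all 3 samples *Per3* was not called. *Clock* had the narrowest interval, from -0.24 to 0.25. The interval of *Nr1d1* reached up to 0.71 and that of *Dbp* up to 1.31, so that a higher level in Pcbp2KO cells by more than the 1.5-fold threshold lay within both.

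The glucose responses of the 2 genotypes were compared by an interaction term. No clock gene was called, and none had an unadjusted p under 0.05, where 0.0044% of tested genes, a single gene, were called. DESeq2 called none of the 10, and without the 3 samples that stood apart edgeR called none, against 0.00897% of tested genes. The interaction was largest in size for *Cry1*, with an estimate of -0.54 (95% interval -1.17 to 0.09), a steeper decrease in Pcbp2KO cells that did not pass the test (adjusted p = 0.9999, edgeR).

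A list of 18 other genes of the clock network, all of which were tested, was read in the same fit. In control cells 7 were called with glucose, 5 lower and 2 higher, and in Pcbp2KO cells 10 were called, 9 lower and 1 higher, where 13.9% and 23.9% of all tested genes were called. Without the 3 samples that stood apart, the counts were 8 and 10, against 22% and 28.6% of all tested genes. The median log2 fold changes of this list were -0.28 and -0.59. *Arntl*, the files' name for *Bmal1*, was between 14.6 and 25.8 CPM in all 17 samples and was not called, with changes of -0.09 ± 0.17 and -0.19 ± 0.14. *Rora*, whose product competes with REV-ERB at the same element, was lower in both genotypes, at -0.97 ± 0.18 and -1.08 ± 0.15 on the log2 scale.

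*Hlf*, the third PAR bZIP factor, was at 3.65, 5.68 and 6.43 CPM in control cells at 2.8 mM and at 0.613, 0.677, 0.840 and 4.30 CPM at 16.7 mM. As with *Dbp*, replicate 4 was the exception among the samples at high glucose. *Hlf* was not called in control cells (-1.70 ± 0.58, adjusted p = 0.0548, edgeR) and was called in Pcbp2KO cells (-2.39 ± 0.50, adjusted p = 0.00153). *Ciart*, a repressor of CLOCK and BMAL1, was called lower in both, at -1.36 ± 0.37 and -1.70 ± 0.31. *Nampt*, a clock output that makes a precursor of NAD+, was lower in both, at -1.26 ± 0.21 and -1.44 ± 0.18. *Fbxw11*, which marks period proteins for degradation, was lower in both, at -0.66 ± 0.15 and -0.86 ± 0.13, as was the kinase gene *Wee1*, at -0.75 ± 0.23 and -0.71 ± 0.19. *Nfil3* and *Bhlhe40*, repressors at D-boxes and E-boxes, were called in Pcbp2KO cells and not in control cells, at -0.78 ± 0.23 and -0.81 ± 0.21, and no interaction was called for any gene of the list.

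Higher at 16.7 mM in control cells were *Npas2*, a paralog of *Clock* that stayed under 1 CPM in every sample (2.46 ± 0.66), and *Usp2*, a deubiquitinase (1.46 ± 0.23). *Usp2* was also higher in Pcbp2KO cells, at 1.73 ± 0.19. On log2(TPM + 0.1) its change there was -0.14, where the median of all tested genes was itself shifted to -0.71. The casein kinase genes *Csnk1d* and *Csnk1e* were called in neither genotype, with estimates between 0.06 and 0.19. None of the 18 genes was called by edgeR for the knockout at either concentration. At an unadjusted p under 0.05 there were 3 at 2.8 mM and 1 at 16.7 mM, again without a background of all genes at that limit.

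**Figure D4:**
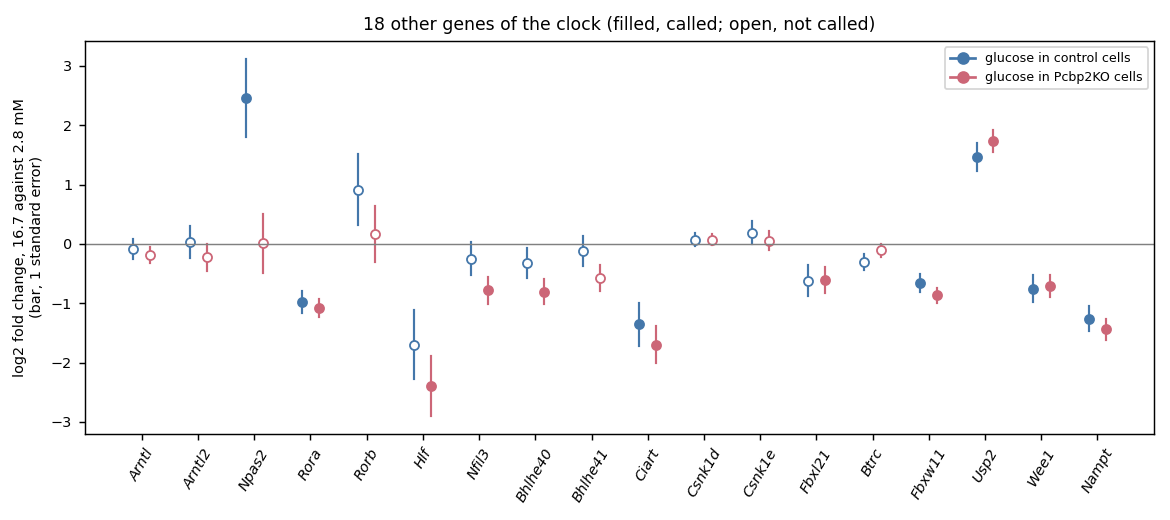
Log2 fold changes with glucose (16.7 against 2.8 mM) of 18 other clock genes in control and in Pcbp2KO cells, with bars of 1 standard error; filled points were called. *Rora*, *Ciart*, *Fbxw11*, *Wee1* and *Nampt* were called lower in both genotypes, and *Usp2* was called higher in both.

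Signals that are known to reset clocks were read from further lists. All 7 genes that respond to cAMP and CREB (*Fos*, *Nr4a1*, *Crem*, *Sik1*, *Dusp1*, *Egr1*, *Junb*) were called higher at 16.7 mM in both genotypes, with log2 fold changes from 2.06 to 5.40 in control cells and from 1.63 to 5.38 in Pcbp2KO cells. Of the 22733 tested genes, 1627 were called higher in control cells and 3060 in Pcbp2KO cells. *Crem* was at 56.9, 40.7 and 39.5 CPM in the 3 samples that stood apart and between 88.6 and 231 CPM in the others at 16.7 mM. *Fos* was not lower in those 3, at 212, 286 and 422 CPM against 168 to 381 CPM. Of the 4 genes that respond to glucocorticoids, *Zbtb16* did not pass the filter, *Sgk1* was called higher with glucose in both (1.12 ± 0.28 and 1.22 ± 0.23), and *Tsc22d3* and *Fkbp5* were called in neither. *Sgk1* was also the only gene of these lists called for the knockout, at 16.7 mM, where 1.71% of all tested genes were called.

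Since samples of 1 group differed in *Dbp*, its deviations from the group means were compared with those of the other 9 clock genes and *Arntl* over the 17 samples, in 10 relations, with permutation of samples within groups (100000 draws, two-sided). *Dbp* deviated together with *Per3* (Pearson r = 0.81, p = 0.00094; Spearman rho = 0.75, p = 0.00269), *Cry2* (r = 0.79, p = 0.00048; rho = 0.78, p = 0.00217) and *Tef* (r = 0.77, p = 0.00185; rho = 0.72, p = 0.00366). After adjustment over the 10 relations, the permutation p values of r for these 3 were 0.0047, 0.0047 and 0.00617. The other 7 relations did not pass. For *Per1* (r = -0.59) and *Arntl* (r = -0.46) the sign was opposite, with adjusted permutation p values of 0.139 and 0.163.

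Without the 2 samples farthest from the median of *Dbp*, control 16.7 mM replicate 4 and Pcbp2KO 2.8 mM replicate 4, r was 0.77 for *Per3*, 0.69 for *Cry2* and 0.65 for *Tef*. Without the 3 samples that stood apart, r was 0.56, 0.72 and 0.39, and no relation passed, so that these relations rest in part on those samples. Within the 8 samples at 2.8 mM r was 0.79, 0.77 and 0.32, and within the 9 at 16.7 mM it was 0.85, 0.80 and 0.95. *Cry1* was related to *Dbp* with r = -0.72 at 2.8 mM and r = 0.70 at 16.7 mM, and its pooled value of 0.18 therefore stands for neither. The 9 samples at 16.7 mM include all 3 that stood apart, and without these the pooled r of *Cry1* was -0.59. Whether the relation differs with glucose was not tested.

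**Figure D5:**
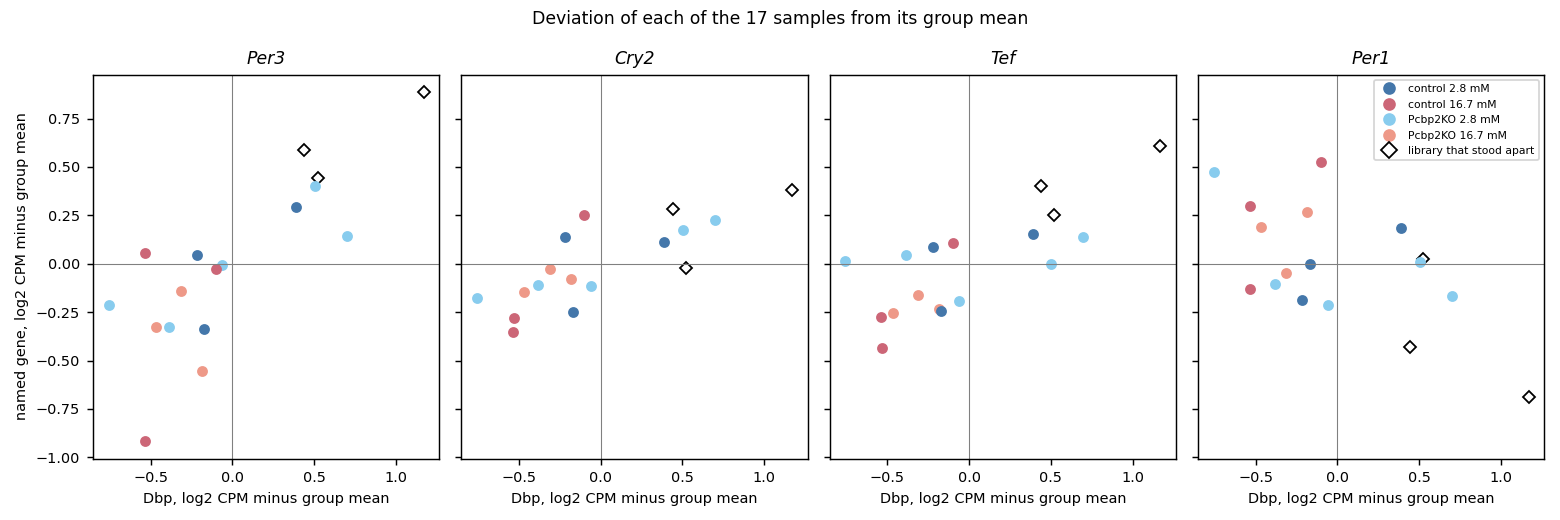
Deviation from the group mean (log2 CPM) of *Per3*, *Cry2*, *Tef* and *Per1* (vertical axes) against that of *Dbp* (horizontal axes) in the 17 samples. Circles are coloured by group, open diamonds are the 3 samples that stood apart, and in all 3 *Dbp* was above its group mean.

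Among the 10009 tested genes outside *Dbp* itself with a mean of at least 5 CPM, *Zfp710* (r = 0.91), *Zbtb14* (0.91), *Tspan5* (0.90), *Atxn7l2* (0.90) and *Pisd-ps1* (0.89) deviated most like *Dbp* over the 17 samples, and *Pbdc1* (-0.92), *Sar1a* (-0.90), *Gm10053* (-0.90), *BC031181* (-0.89) and *Dynll1* (-0.89) most oppositely. These values are given as a description, without a test. Of the clock genes, *Per3* came highest, at rank 88, followed by *Hlf* at rank 138, *Cry2* at rank 143 and *Tef* at rank 184. *Nr4a1* was the 11th most opposite gene, with r = -0.87.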

How the data were processed

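RNA of sorted β cells was sequenced as paired reads after library preparation with an Illumina Ultra Low Input RNA kit, whose strand setting is not given in the sources used here. The authors pseudoaligned reads to the GRCm39 (mm39) mouse transcriptome with kallisto and deposited, per sample, the estimated counts, the effective length and the TPM of 142376 transcripts. The authors tested genes with edgeR and a batch term, whose levels the labels do not give, so that no batch term was used here. Versions of kallisto and of the edgeR that the authors used are not given in the sources used here.

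Estimated counts were summed per gene symbol and rounded to whole numbers. Genes were filtered by expression (filterByExpr), scaled by TMM and tested with edgeR 4.0.16 (R 4.3.3) by quasi-likelihood with 4 group means, all 17 samples sharing 1 estimate of the spread. Calls needed an adjusted p under 0.05 over 22733 genes and a fold over 1.5. CPM values were TMM-scaled, with a prior count of 2 on the log2 scale. Library sizes were between 47369014 and 82377163. Alternatives were DESeq2 1.42.0, limma 3.58.1 on log2(TPM + 0.1) and log2(TPM + 1), RLE and total-count scaling, no filter, length offsets, coding transcripts only, the 2 groups compared alone, a replicate block, and samples left out. The code was tested on simulated data. Windows and motifs were read with Python 3.11.15, and figures were drawn with matplotlib 3.10.9.

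Same-numbered samples of the control groups deviated together in every pair (r over 0.1), and in the other comparisons at least 1 pair did not. What a number stands for is not given in the labels. The named genes were the 10 clock genes, the genes of the lists of other clock, cAMP and glucocorticoid responsive genes (2 of the 20 other clock genes are not reported here), *Pcbp2*, and the 5 genes most like and most opposite to *Dbp*. *Thra* and *Sphk2* were added for their overlap with clock genes. The members and lists were chosen with earlier results of these data known.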

Additional observations from a re-analysis of the deposited data

Results flagged for a closer look

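In 30 groups of 4 or 5 samples (the 10 clock genes in 3 groups each), 2 samples lay far from the others of their group, each by a gap that exceeded Dixon's 95% critical value. Chance alone marks about 1 in 20 groups. *Cry1* in Pcbp2KO 2.8 mM replicate 5 was at 117 CPM, where the other 4 samples were between 67.6 and 78.2 CPM, and the gap was 0.735 of the range of the group on the log2 CPM scale. *Cry2* in Pcbp2KO 16.7 mM replicate 4 was at 150 CPM, where the other 4 were between 111 and 121 CPM, and the gap was 0.712 of the range on that scale. The latter is 1 of the 3 samples that stood apart.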

How the results depend on the processing

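*Nr1d1* was called lower at high glucose in both genotypes under every alternative tried. In control cells, the 4 calls became 9 with limma on log2(TPM + 0.1) and 9 on log2(TPM + 1), 1 with the 2 groups compared alone, 7 with the replicate block and 7 without the 3 samples that stood apart. The calls over all tested genes moved too, from 3150 of 22733 to 8891 and 6963 on the TPM scales. They were 2525 of 19736 with the 2 groups alone, 4769 of 22733 with the block and 4899 of 22302 without the 3 samples. Leaving out single samples gave 1 to 7 clock genes, against 1384 to 4475 of all tested genes. In Pcbp2KO cells, the 5 calls became 9 and 9 on the TPM scales, 3 with length offsets and 8 without the 3 samples, and leaving out single samples gave 3 to 5, with 3 (*Cry1*, *Nr1d1*, *Nr1d2*) without Pcbp2KO 2.8 mM replicate 4 or 16.7 mM replicate 1, 2 or 3. The replicate block left 5 calls there. Over all 22733 tested genes, 5436 were called in the main fit, 12435 and 8815 on the TPM scales, 5279 with length offsets and 5900 with the block. Without the 3 samples 6387 of 22302 were called, and leaving out single samples gave 4640 to 5739. On the TPM scales the median of all genes was itself lower, by log2 fold changes of -0.55 and -0.24 in control and -0.71 and -0.33 in Pcbp2KO cells. Knockout calls stayed at 0 at 2.8 mM, and leaving out single samples gave 0 to 1 at 16.7 mM, against 213 to 654 of all tested genes. The interaction had 0 calls throughout. The 3 relations of *Dbp* became 6 on the TPM scale and 0 without the 3 samples, and leaving out single samples gave 3 to 5.

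In the glucose comparisons, signs turned for *Clock* in control cells (-0.33 with total-count scaling, -0.76 and -0.67 on the TPM scales) and in Pcbp2KO cells (-0.40, -0.94 and -0.85), for *Per1* in Pcbp2KO cells (-0.078, -0.49 and -0.30) and for *Usp2* in Pcbp2KO cells (-0.14 and -0.11 on the TPM scales). In each of these settings the median of all tested genes was itself negative, at -0.35 and -0.47 with total-count scaling in control and Pcbp2KO cells. In the knockout comparisons, the sign of 3 clock genes at 2.8 mM (*Clock*, *Nr1d1*, *Nr1d2*) and 6 at 16.7 mM (the same 3, *Per1*, *Cry1* and *Cry2*) turned under at least 1 alternative, with estimates of up to 0.12 and 0.20 in size, and that of 7 in the interaction, up to 0.33. The cause was not tested. Over single genes and settings, 1686 values kept direction and side of the threshold, 85 lost the call and 35 gained it. The lowest estimated count of a clock gene in a sample was 259.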
